A study of Mus musculus with 4 samples.

Results

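The miR-183 cluster is a group of 3 miRNAs, miR-183, miR-96 and miR-182, that are cut from 1 primary transcript. Its members were taken by probe name (mmu-miR-183, mmu-miR-96 and mmu-miR-182), 3 of the 566 mouse miRNA probes of the panel. Levels came from the nanoString nCounter miRNA assay, which counts colour-coded barcodes hybridised to each miRNA without amplification. Total RNA came from epidermal cells scraped off trypsin-treated back skin of adult mice, a preparation described as enriched for skin progenitors. Mice of both groups carried R26stoprtTA/+, a doxycycline-dependent activator behind a stop that Cre removes, together with Col-tetO-YAPS127A/+, a doxycycline-controlled YAP with the S127A mutation, and all drank doxycycline at 1 mg/ml for 8 days. The oncogenic group (2 samples) also carried K14-Cre, active in basal keratinocytes, and the normal group (2 samples) had no Cre. YAP is the transcriptional coactivator that the Hippo pathway restrains, and this mutant is constitutively active. The oncogenic cells are titled tumours, although they are cells collected after induction, described as able to give squamous cell carcinoma when grafted. The labels give 6 control mice and do not say which animals went into which sample. The spread behind each p-value is therefore that of the samples as deposited and may be technical.

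The cluster is known from sensory cells, among them the hair cells of the inner ear and the photoreceptors of the retina, and it is reported as raised in several carcinomas. miR-96 is known for seed mutations that cause progressive hearing loss in mice and humans, and miR-96 and miR-182 are both known to repress the transcription factor Foxo1. A miRNA finds its targets mainly through its seed, bases 2 to 8 from the 5′ end, so members with different seeds bind different but partly overlapping sets of mRNAs.

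The mature sequences are shown because the seeds separate the members into different target groups and because the likeness of 2 of them bears on how their probes can be read. They are the 5p arms in RefSeq (build GRCm38.p6), 5′ to 3′, with the seed in capitals.
miR-183: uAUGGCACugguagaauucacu
miR-96: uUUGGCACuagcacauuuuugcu
miR-182: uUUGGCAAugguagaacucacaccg
The 3 seeds differ from each other. miR-96 and miR-182 share bases 2 to 7 and differ within the seed by C8A (miR-96 base, position from the 5′ end, miR-182 base), while miR-183 differs from miR-96 within the seed by A2U. Over the whole sequence, seed included, the likeness runs differently: aligned from base 1, miR-183 and miR-182 are identical at 18 of 22 bases, miR-96 and miR-182 at 12 of 23, and miR-183 and miR-96 at 13 of 22. Among the 1738 mature mouse sequences of the table, 1 other, miR-1271-5p, had a member's whole seed, that of miR-96. It is encoded on chromosome 13 and no probe of that name was among those analysed.
miR-1271-5p: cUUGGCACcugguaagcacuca

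The hairpins are shown with the 5p miRNA in capitals, in their order along the transcript, because their spacing sets miR-182 apart from the other two. All lie on the minus strand of chromosome 6, inside the span of the lncRNA gene Mirc35hg, between the protein-coding genes Nrf1 and Ube2h. The hairpin of miR-183 covers chr6:30169668-30169737, that of miR-96 chr6:30169446-30169551 and that of miR-182 chr6:30165918-30165992 (GRCm38.p6).
Mir183: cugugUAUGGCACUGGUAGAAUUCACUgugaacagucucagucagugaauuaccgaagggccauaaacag
Mir96: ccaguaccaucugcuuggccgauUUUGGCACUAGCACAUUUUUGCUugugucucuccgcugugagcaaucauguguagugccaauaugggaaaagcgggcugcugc
Mir182: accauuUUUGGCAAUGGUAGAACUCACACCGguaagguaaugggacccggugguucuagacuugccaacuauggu
The hairpins of miR-183 and miR-96 are 116 bases apart, and 3453 bases separate those of miR-96 and miR-182, so that the whole cluster spans 3820 bases.

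The samples held 53709 to 230284 recovered miRNA counts, and oncogenic replicate 2 had the fewest. The deposited values are normalized counts, whole counts multiplied by 1 factor per sample, and a miRNA was tested if it reached 30 in no fewer than 2 of the samples, which 124 did. The keratinocyte miRNAs miR-203 and miR-205 lay between 8229 and 40291 normalized counts in all samples, while miR-184, another miRNA on the keratinocyte list, lay between 4.39 and 12.3. At an adjusted p under 0.05 in limma, 5 of the 124 miRNAs (4.03%) were lower in oncogenic cells and 0 were higher, while at an unadjusted p under 0.05 it was 26 lower (21%) and 4 higher (3.23%). DESeq2 called 8 lower and 3 higher on the recovered counts, and edgeR called 1 lower and 0 higher. The adjusted calls fell to 3 lower without normal replicate 1 and to 1 without normal replicate 2, and rose to 25 without oncogenic replicate 1 and to 8 without oncogenic replicate 2.

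By probe signal, miR-96 was the highest member in every sample, miR-183 lay in the middle and miR-182 close to background, and none passed a test for a difference between oncogenic and normal cells. As deposited, miR-183 read higher in both oncogenic samples, by 1.33-fold, with closely matched replicates. Both the order and the match depended on the scaling between samples. In the deposited values miR-96 varied more between replicates than between groups. Of the 3 members 2 were tested and 0 passed, against 4.03% of all tested miRNAs in either direction. In these bulk samples a different number of cells that make a miRNA and a different amount per cell cannot be told apart.

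miR-183, the member at the 5′ end of the transcript, read 122 and 120 normalized counts in the normal pair, against 156 and 166 for the oncogenic pair. Both oncogenic samples were above both normal samples, an order that 12.9% of the tested miRNAs showed, where 38.7% showed the opposite one. These values rest on 139, 139, 179 and 94 recovered counts, with the normal samples first and replicate 1 before replicate 2. Exact Poisson intervals (95%), which cover counting error only, ran from 102.6 to 144.2 and from 100.6 to 141.4 for the normal pair, and for the oncogenic pair from 134.3 to 181.02 and from 133.8 to 202.6. The intervals of the groups thus overlapped, although the values did not. The group means were 121 ± 1.68 (SD, n = 2) in normal and 161 ± 6.51 (SD, n = 2) in oncogenic cells. The log2 difference, the oncogenic mean of log2(value + 1) less the normal mean, was 0.41 (SE 0.28, 95% interval -0.33 to 1.15, limma with Benjamini-Hochberg adjustment, adjusted p = 0.498). It was the 22nd highest of the 124 differences.

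As deposited, the replicates of miR-183 differed less than counting error allows them to be told apart. The second normal replicate stood at 0.98 times the first (95% exact conditional interval 0.77 to 1.25) and the second oncogenic replicate at 1.06 times the first (0.82 to 1.37). Of the other 123 tested miRNAs, 114 had a larger gap between the normal replicates than miR-183, and 114 had a larger gap between the oncogenic replicates. The match of the oncogenic pair rests on the deposited scaling. In that pair the median log2 value of the tested miRNAs was 7.04 and then 6.59, so scaling to the median would move its miR-183 values apart. As a share of all recovered miRNA counts, miR-183 held 0.078% and 0.175% in that pair. The total behind these shares includes the miR-720 probe, at 92371 and 13707 normalized counts in the pair, so the gap between them depends on that probe too.

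miR-96, the middle member, read 381 and 669 normalized counts in the normal pair, against 571 and 345 for the oncogenic pair. The groups overlapped, with the lowest and the second highest value both in oncogenic cells. The group means were 525 ± 204 (SD, n = 2) and 458 ± 160 (SD, n = 2). The log2 difference was -0.19 (SE 0.43, 95% interval -1.33 to 0.96, limma adjusted p = 0.841). Its sign rested on single samples, since it was 0.22 without normal replicate 2 and 0.18 without oncogenic replicate 2, against -0.59 without normal replicate 1 and -0.55 without oncogenic replicate 1.

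For miR-96 the replicates differed by more than counting error as deposited. As a share of all recovered miRNA counts the oncogenic pair stood in the opposite order, at 0.284% and 0.365%. That total includes the miR-720 probe, which read 92371 and 13707 normalized counts in the oncogenic pair. The order by share thus depends on that probe as well and is no plain measure of miR-96. Recovered counts were 434, 777, 654 and 196 in the same sample order. The second normal replicate stood at 1.76 times the first (95% exact conditional interval 1.56 to 1.98), while the second oncogenic replicate stood at 0.60 times the first (0.51 to 0.71). The replicate gap of miR-96 on the log2 scale was 0.81 in normal and 0.73 in oncogenic cells, where the medians over all tested miRNAs were 0.40 and 0.56. Larger gaps were seen in 29 tested miRNAs for the normal pair and in 47 for the oncogenic pair.

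miR-182, the member at the 3′ end and the one whose hairpin lies farthest from the others, read 20.2 and 15.5 normalized counts in the normal pair, against 33.2 and 24.7 for the oncogenic pair. Both oncogenic samples were above both normal samples, but only oncogenic replicate 1 reached 30, so miR-182 was not among the tested miRNAs. The same order was seen in 12.9% of the tested miRNAs, a share that does not cover probes this low. Whether the order of miR-182 holds under other scalings was not tested. Recovered counts were 23, 18, 38 and 14, and the exact Poisson intervals of the normalized counts (12.8 to 30.3, 9.19 to 24.5, 23.5 to 45.6 and 13.5 to 41.4) all overlapped between the groups, those of normal replicate 2 and oncogenic replicate 1 only from 23.5 to 24.5. The 33 viral probes, which have no target in mouse, reached 17.6, 27.6, 18.3 and 22.9 in the same samples. In normal replicate 2, 3 of them stood at or above miR-182, and in the other samples 0 did. The mean difference of the log2 values was 0.66, and with every miRNA probe tested it had an adjusted p of 0.959 in limma.

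**Figure D1:**
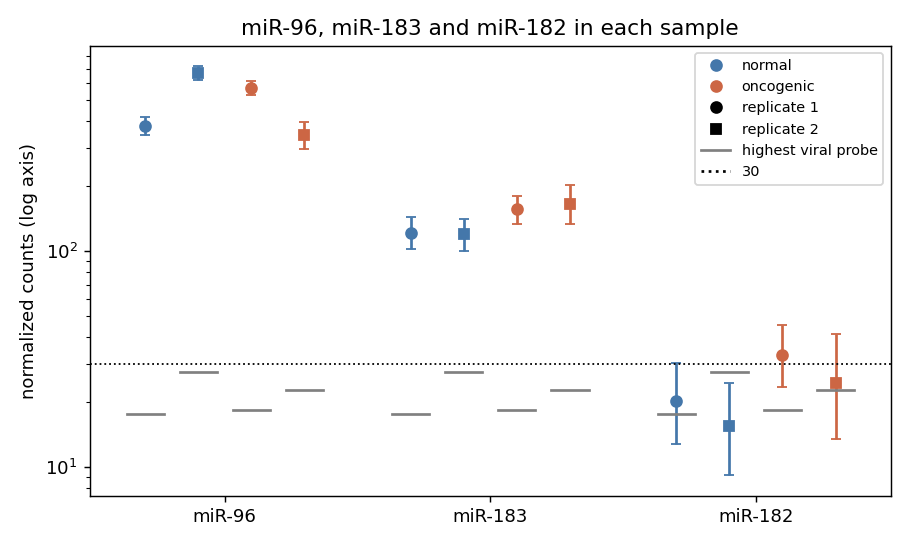
Normalized counts (log axis) of miR-96, miR-183 and miR-182 in the 2 normal and 2 oncogenic samples, with exact Poisson intervals (95%, counting error only), grey bars at the highest viral probe of each sample and a dotted line at 30. The miR-183 replicates lie together (122 and 120, then 156 and 166), the miR-96 groups overlap, and miR-182 lies near the viral probes.

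A single factor per sample cancels in the ratio of 2 members within a sample, so these ratios do not depend on any scaling of that kind. Probes differ in efficiency, so the size of a ratio is no molar ratio and only its change between samples is read. The ratio of miR-183 to miR-96 was 0.32 and 0.18 for the normal pair, against 0.27 and 0.48 for the oncogenic pair. Its lowest value was in a normal sample and its highest in an oncogenic one, with the other two in between and in the opposite order, so the groups overlapped. It differed within each group by more than counting error: the exact conditional intervals (95%) were 0.26 to 0.39 and 0.15 to 0.21 for the normal pair, against 0.23 to 0.32 and 0.37 to 0.62 for the oncogenic pair, with no overlap between replicates. The mean log2 ratio was -2.05 ± 0.59 (SD, n = 2) in normal and -1.46 ± 0.57 (SD, n = 2) in oncogenic cells, a change of 0.59 (exact two-sided permutation test, p = 0.667). With 6 splits of 2 against 2 samples this exact test cannot go below p = 0.333. The change was 0.18 without normal replicate 2 and 0.19 without oncogenic replicate 2, and 1.01 and 1.00 without normal replicate 1 and oncogenic replicate 1. With quantile normalization, which is not a single factor, it was 0.95.

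The ratio of miR-182 to miR-183, the 2 members most alike in sequence, varied least, at 0.17 and 0.13 for the normal pair, against 0.21 and 0.15 for the oncogenic pair. The counting intervals of all 4 samples overlapped, from a lowest bound of 0.075 to a highest of 0.30. The change in its log2 value was 0.25 (exact two-sided permutation test, p = 0.667). It was 0.006 without oncogenic replicate 1, 0.087 without normal replicate 2, 0.42 without normal replicate 1 and 0.50 without oncogenic replicate 2. Whether the miR-182 probe takes signal from miR-183, with which it shares 18 of 22 bases, was not tested.

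Because miR-182 was not above the highest viral probe in normal replicate 2, its ratios in that sample are upper bounds. The ratio of miR-182 to miR-96 was 0.053 and 0.023 for the normal pair, against 0.058 and 0.071 for the oncogenic pair. Both oncogenic samples lay above both normal samples, by little over normal replicate 1. The change in its log2 value was 0.85 (exact two-sided permutation test, p = 0.333, the smallest it can give), and 0.26 without normal replicate 2 against 1.43 without normal replicate 1. With p-values adjusted over the 3 ratios, each had an exact permutation p of 0.667.

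**Figure D2:**
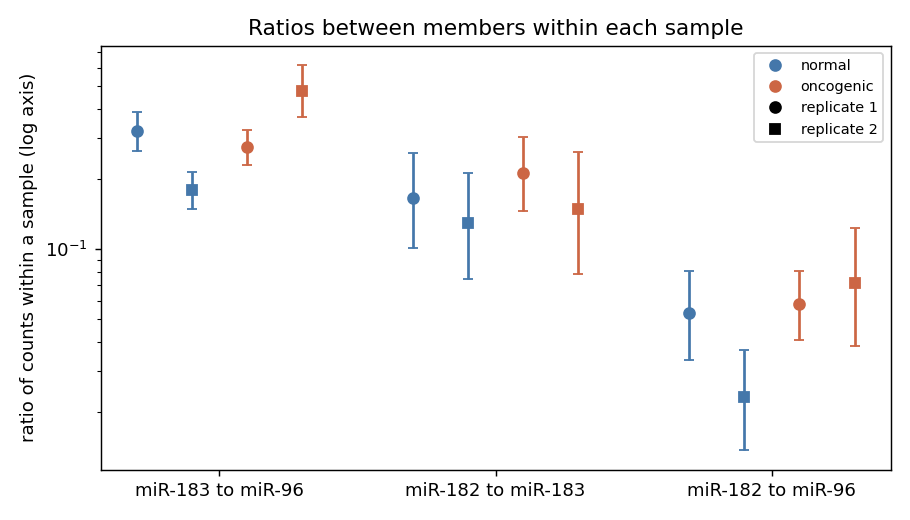
Ratios of recovered counts between members within each sample (log axis), with exact conditional intervals (95%, counting error only), for 2 normal and 2 oncogenic samples. The ratio of miR-183 to miR-96 runs from 0.18 in normal replicate 2 to 0.48 in oncogenic replicate 2, and the replicates of each group do not overlap. The intervals of miR-182 to miR-183 overlap in all samples.

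Summed over the cluster, the signal was 524 and 804 normalized counts for the normal pair, against 761 and 535 for the oncogenic pair, so the groups overlapped. Of this sum miR-96 made up 72.8% and 83.2% for the normal pair, against 75.1% and 64.5% for the oncogenic pair. miR-183 made up 23.3% and 14.9%, then 20.6% and 30.9%, and miR-182 from 1.93% to 4.61%. As a share of all recovered miRNA counts the cluster held 0.315% and 0.598% for the normal pair, against 0.378% and 0.566% for the oncogenic pair, which also overlapped between the groups. That total includes the miR-720 probe. It read 51572 and 10046 normalized counts for the normal pair, against 92371 and 13707 for the oncogenic pair. These shares thus depend on that probe as well and are no plain measure of the cluster.

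Whether both oncogenic samples lay above both normal samples for miR-183 depended on what the samples were scaled to. The median of the 124 log2 differences was -0.19, so that relative to the median miR-183 stood at 0.60 and miR-96 at 0.01. Under the 6 other scalings tried, the miR-183 difference ran from 0.004 with the 4 housekeeping mRNA probes, through 0.16 with the positive control probes, to 0.95 with each sample centred on its median. With the mRNA probes and with the positive control probes the groups of miR-183 overlapped. How many of the 124 tested miRNAs had both oncogenic samples above both normal samples also moved with the scaling. As deposited it was 16, against 5 with the mRNA probes and 4 with the positive control probes. It was 46 with centring, 40 with the 100 most abundant miRNAs and 36 with quantile normalization. Scalings by a single factor move all miRNAs alike and so leave the distance from the median at 0.60 by construction. Quantile normalization, which can move it, gave 0.62. The miR-96 difference turned positive with centring (0.35) and with the 100 most abundant miRNAs (0.22). Its distance from the median was -0.34 with quantile normalization, against 0.01 as deposited.

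**Figure D3:**
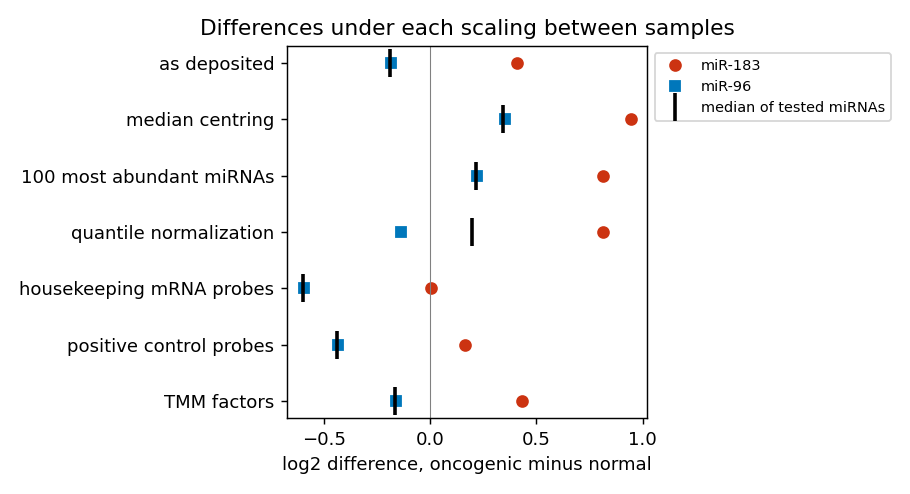
Log2 differences (oncogenic minus normal) of miR-183 and miR-96 as deposited and under 6 other scalings between samples, with the median over the 124 tested miRNAs as a black bar. The distance of each miRNA from the median is fixed by construction except with quantile normalization, where it is 0.62 for miR-183 and -0.34 for miR-96.

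The members were also set against 7 epithelial miRNAs of the same samples. These were the miR-200 family (miR-200a, miR-200b, miR-200c, miR-141 and miR-429), known for keeping cells epithelial by repression of Zeb1 and Zeb2, and the keratinocyte miRNAs miR-203 and miR-205. Among all 124 tested miRNAs, 73 had negative differences. Of the 7 epithelial miRNAs, 0 passed the test, 6 had negative differences and 1 a positive one, with a median of -0.79. Against their mean log2 level, miR-183 stood at -4.46 and -4.51 for the normal pair, against -3.67 and -2.99 for the oncogenic pair. miR-96 stood at -2.83 and -2.04, against -1.81 and -1.93. Both members were thus higher relative to these miRNAs in both oncogenic samples (exact two-sided permutation test, p = 0.333 for each, the smallest it can give). The same order was shown by 46.2% of the 117 tested miRNAs outside the 7, so it does not set the cluster apart.

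Other miRNA clusters with members from 1 locus show how far members of a transcript moved apart in these samples. Between miR-183 and miR-96, the tested members, the log2 differences spanned 0.59. With miR-182, which was not tested, the span would be 0.85 and fewer of the clusters below would have a larger one. Of 17 other such clusters, 10 had at least 2 tested members, and their spans ran from 0.25 for miR-191 and miR-425 to 1.77 for miR-451 and miR-144, with a median of 0.99. The span was larger than that of the miR-183 cluster in 9 of the 10, a rank that rests on single samples: without normal replicate 1 the cluster spanned 1.01 and 5 of the 10 were larger, and without oncogenic replicate 1 it spanned 1.00 and 6 were larger. Without normal replicate 2 or oncogenic replicate 2 it spanned 0.18 or 0.19, with 9 or 8 larger. In the miR-200b, miR-200a and miR-429 cluster all 3 differences were negative, from -1.86 to -0.79, and in the miR-99b, let-7e and miR-125a-5p cluster all 3 were positive, from 0.32 to 1.19. miR-221 and miR-222, which share a seed, stood on opposite sides of 0 like miR-183 and miR-96, at 0.97 and -0.24. Apart from miR-451, which fell, no tested member of these clusters passed, and clusters differ in the number of tested members, so these spans are a description with no test.

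**Figure D4:**
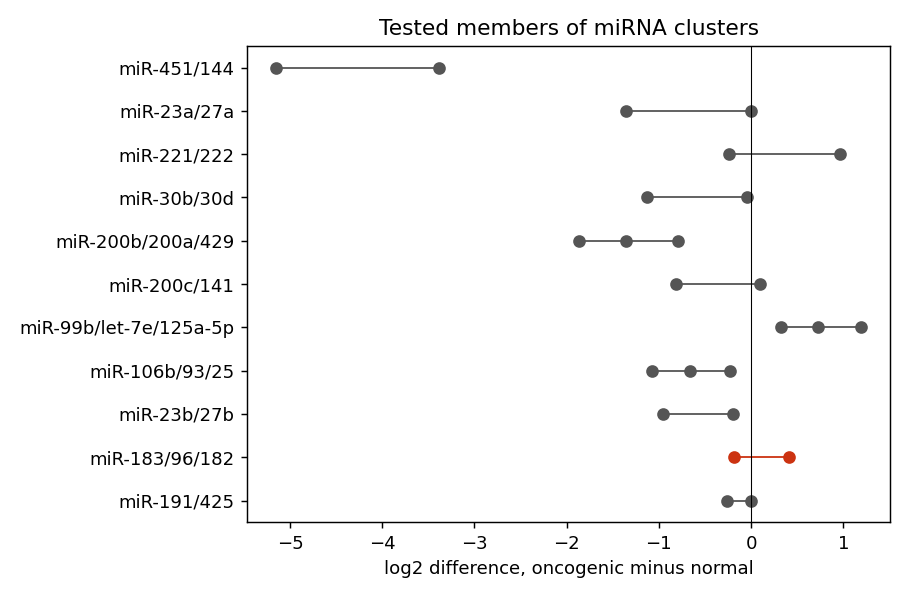
Log2 differences (oncogenic minus normal) of the tested members of the miR-183 cluster (red, miR-96 at -0.19 and miR-183 at 0.41) and of 10 other clusters (grey), each line joining the members of 1 cluster, ordered by span. With all samples the span of the miR-183 cluster is smaller than in 9 of the 10, and without normal replicate 1 it is smaller than in 5.

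The miRNAs whose profile over the 4 samples was most like that of each tested member were found by the root mean square distance between log2 profiles, each centred on its own mean. Nearest to miR-183 were miR-30c, miR-19b and let-7e, at distances of 0.15, 0.15 and 0.15, where the median over the tested miRNAs was 0.63. miR-19b, for example, read 229 and 261 normalized counts in the normal pair, against 363 and 299 for the oncogenic pair. Nearest to miR-96 were miR-652, miR-191 and miR-205, at 0.13, 0.15 and 0.21, with a median of 0.54. miR-205, the most abundant of them, read 23262 and 40291 in the normal pair, against 25839 and 23078 for the oncogenic pair, with its highest value in normal replicate 2 like miR-96. The members themselves were 0.51 apart: 56 of the other tested miRNAs lay closer to miR-183 than miR-96 did, and 55 lay closer to miR-96 than miR-183 did. These likenesses rest on 4 samples and are a description.

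The list named sensory and neural held 6 miRNAs (miR-124, miR-9, miR-128, miR-138, miR-7a and miR-219). Hair cells and photoreceptors, the cells named above for the cluster, had no list of their own. Of the 6, 1 (miR-138) was tested and did not pass, and 5 lay under 30 in all samples, with 0 of the 6 at 0 in all. This list summed to 59.7 and 50.8 normalized counts for the normal pair, against 95.2 and 74.0 for the oncogenic pair. Its strongest probe was miR-138, at 27.2 and 11.2, against 59.4 and 35.2. On this list miR-138 alone had both oncogenic samples above both normal samples. It reached 30 in the oncogenic samples only, so it was tested through them and this order followed from the filter. The 12.9% of tested miRNAs with the same order is therefore no measure for miR-138. The groups overlapped for the other 5. miR-124, a defining miRNA of neurons, lay between 7.05 and 14.0, below the highest viral probe of each sample. Several lists of other cells summed to less in both oncogenic samples, where 38.7% of all tested miRNAs had both oncogenic samples below both normal samples. The red blood cell list (3 markers, 2 tested, 1 lower) summed to 814 to 942 in normal and 46.3 to 47.6 in oncogenic cells, the endothelial list (2, 1 tested, 1 lower) to between 223 and 400 and then 11.4 to 17.6, and the melanocyte list (2, 1 tested, 1 lower) to 171 to 345 and 17.6 to 28.0. The white blood cell list (6 markers, 5 tested, 1 lower) summed to 492 to 621 in normal and 334 to 440 in oncogenic cells. Its members were mixed. miR-146a, miR-142-3p, miR-150 and miR-223 read lower in both oncogenic samples, the order that 38.7% of the tested miRNAs showed. miR-142-5p, which was not tested, read higher in both, and miR-155 overlapped. The stromal list (5 markers, 1 tested, 0 past the threshold) summed to 79.2 to 105 in normal and 31.7 to 38.4 in oncogenic cells. The 4 muscle markers, of which 0 were tested, summed to 44.8 to 51.7 in normal and 34.9 to 44.0 in oncogenic cells. No marker was at 0 in all samples. The part of any of these cells in the values of the cluster was not tested.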

How the data were processed

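Levels of mouse miRNAs were measured in 4 samples, 2 normal and 2 oncogenic, grouped by the condition label, with the nanoString nCounter miRNA assay, per the labels' protocols. The values deposited by the authors are a normalized signal, and the method behind it is not given in the sources used here. As the values themselves show, the 603 scaled probes are whole counts times 1 factor per sample (100% whole within 0.1 count; factors 0.878, 0.861, 0.874 and 1.76), and control probes are unscaled counts. The cluster is defined by probe names, but it was picked for description, and the lists and tests were chosen, with earlier results of these data known.

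Differences were tested in R 4.3.3 with limma (version 3.58.1; lmFit, then eBayes allowing a mean-variance trend) on log2(value + 1) of all 124 miRNAs that reached 30 in 2 samples or more, with Benjamini-Hochberg adjustment over them and a threshold of 0.05. This scale understates changes of low miRNAs. Ratios were compared with exact permutation tests over samples. The named miRNAs are the members, the 3 nearest profiles of each tested member, miRNAs sharing a seed, the epithelial miRNAs, the marker lists and the members of other single-locus clusters; miR-181c and miR-181d were left out because 1 probe serves miR-181b and miR-181d. For miR-34b the 5p probe was used. Alternatives were 6 scalings, a filter minimum of 100 or none, pseudocounts of 10 and 30, eBayes without the trend, subtraction of the negative control mean, a replicate block, leaving out each sample, and DESeq2 (version 1.42.0) and edgeR (version 4.0.16) on recovered counts. Simulated data with known changes were used to check the limma code. Mature sequences and hairpins of all 3 members were matched by name to RefSeq tables of GRCm38.p6, and probes were read as the 5p arms.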

Additional observations from a re-analysis of the deposited data

How the results depend on the processing

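The miR-183 difference was positive under all 19 alternatives, from 0.004 to 0.95, and passed the threshold under none (adjusted p from 0.214 to 0.993). The miR-96 difference passed under none (adjusted p from 0.461 to 0.982) and was negative under 13 and positive under 6, namely centring (0.35), the 100 most abundant miRNAs (0.22), DESeq2 (0.10), edgeR (0.16) and without normal replicate 2 or oncogenic replicate 2; leaving out samples gave -0.59 to 0.22. The miR-182 difference was positive under all 15 alternatives that gave one, among them 1.20 with centring, 1.05 with the 100 most abundant miRNAs, 0.27 with mRNA probes and 0.30 with a pseudocount of 30. Lower calls numbered 3 with quantile normalization and with positive controls, 8 with DESeq2, 1 with edgeR and 1 to 25 when a sample was left out. Higher calls numbered 3 with centring, with the 100 most abundant miRNAs and with DESeq2, and 0 to 2 when a sample was left out. The change in the ratio of miR-182 to miR-183 turned to -0.041 with a pseudocount of 30. With the replicate number as a block there were 24 lower and 6 higher calls, none of them a member (adjusted p 0.611 for miR-183 and 0.783 for miR-96); same-numbered samples deviated together (correlation 0.66 over miRNAs), but the labels give no shared source for 2 pairs. The causes were not tested. The miR-182 values rest on 14 to 38 counts.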

Other observations

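By probe signal, miR-96 and miR-182 stood 4.33 apart on the log2(value + 1) scale, averaged over the 4 samples. miR-34b and miR-34c stood 4.84 apart, with the miR-34b 5p probe between 7.91 and 21.1 normalized counts and miR-34c between 339 and 599. The miR-34b 5p probe was below the highest viral probe in every sample and miR-182 was in normal replicate 2, so both gaps are lower bounds and their order is not read. The efficiencies of these probes are not known, so a gap between probes is no difference in the number of molecules.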
